A study of Mus musculus with 55 samples.

Results

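Cytosolic ribosomal protein genes were followed through 5 B lineage populations of mouse bone marrow. A gene was a member if the array annotation gave its probe set a single symbol that starts with Rpl or Rps or is Fau. The 2 probe sets of the Rps6k kinases were left out. The rule found 61 probe sets, which stand for 47 genes (31 Rpl, 15 Rps and Fau), out of 13069 probe sets, of which 7542 had 1 symbol, and out of 6137 genes so named. Each gene is given by its brightest probe set, 35 on the first array set and 12 on the b set. The choice used no difference between populations.

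The populations were sorted from marrow by surface markers. Pre-BI cells were positive for B220 and c-kit (6 preparations). Large and small pre-BII cells were positive for B220 and CD25, lacked surface immunoglobulin and were separated by size (5 preparations each). Immature B cells had low B220 and surface IgM, and mature B cells had high B220 and surface IgM (5 preparations each). The 26 preparations are named by population and sort number and were measured on both array sets. One first-set array, whose title names mature B sort 1 again, was identical in all values to the array of mature B sort 11. It was kept once, as sort 11, which left 54 arrays of 55. The labels do not tell which title is right. If it is that of sort 1, the first-set values given as mature B sort 11 come from sort 1. The labels give no strain, age or number of animals and do not say that preparations are separate animals, so p-values measure the spread between preparations, which may be technical. Their number limits the precision of every value.

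A ribosome is a small and a large subunit, each built of ribosomal RNA and of proteins encoded by single genes scattered over the genome, named Rps for the small subunit and Rpl for the large one. The proteins are needed in near equal amounts, and most of their mRNAs begin with a tract of pyrimidines through which translation of the whole group is adjusted to growth signals. B cell precursors alternate between growth with division, in the pre-BI and large pre-BII stages, and rest, from the small pre-BII stage on, so demand for ribosomes differs between the populations.

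The sequences at the annotated starts are shown for the 6 members that passed a test below with no block for sort number. Runs of C and T letters are marked because the group is known for a pyrimidine tract. Each is 20 bases before and 30 bases after the first listed start, 5′ to 3′ on the strand of the gene (RefSeq, GRCm38.p6), and capitals mark an unbroken run of at least 8 C or T letters.
Fau, chr19:6057927-6057976, plus strand: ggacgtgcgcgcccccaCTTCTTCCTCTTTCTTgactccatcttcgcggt
Rpl13a, chr7:45128716-45128765, minus strand: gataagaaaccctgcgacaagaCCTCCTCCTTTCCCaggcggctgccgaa
Rpl28, chr7:4792945-4792994, plus strand: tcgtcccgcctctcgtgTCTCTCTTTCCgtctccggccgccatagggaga
Rps12, chr10:23787180-23787229, minus strand: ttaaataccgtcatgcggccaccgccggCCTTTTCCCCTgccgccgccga
Rpsa, chr9:120127746-120127795, plus strand: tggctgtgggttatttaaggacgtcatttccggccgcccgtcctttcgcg
Rpl12, chr2:32961692-32961741, plus strand: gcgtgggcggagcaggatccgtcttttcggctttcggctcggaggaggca

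The runs of Fau (16 letters), Rpl28 (11), Rpl13a (14) and Rps12 (11) lie at or within 10 bases of the start. In Rpsa the longest run in the searched window had 7 letters, and in Rpl12 a run of 8 lay outside the printed stretch. The cut of 8 letters was a choice of the search, so a stretch without capitals is not shown to lack the tract. Promoter sequences were held for 37 of the 47 members, and a run of at least 8 such letters that reaches into the stretch from 10 bases before to 50 after the start was found in 25 of them (67.57%), against 24.19% of the 27025 promoters of all genes. CCGGAAG on either strand was found within the 300 bases around the start in 12 of 37 (32.43%), against 9.12% of all. These matches are letters in a window and nothing was measured at them. Rpl23a, Rpl29, Rpl3, Rpl32, Rpl32-ps, Rpl36, Rpl7, Rpl8, Rps29 and Rps4l had no entry.

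By the RefSeq annotation 45 of the 47 members are protein coding genes, on 17 chromosomes. Rpl32-ps is a pseudogene and Rps4l a transcribed pseudogene. Because ribosomal protein genes have many processed pseudogenes and close sequence relatives, probe sets of these arrays are often shared: 32 members were read by family probe sets (suffix f), 8 by shared ones (suffix s), 1 by a set marked r and 6 by plain ones. A level may therefore include copies of the gene. A further 24 probe sets that name a ribosomal protein gene together with another symbol were kept apart.

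Levels are normalised intensities, on a scale set by making the arrays of each set share 1 distribution of values, so a level is relative to the other transcripts of the same array and not a number of molecules per cell. In bulk RNA of a sorted population, fewer cells with a transcript and less of it per cell cannot be told apart. The members were among the brightest features of the arrays. Their median percentile rank was 97.587, 34 ranked above the 90th percentile and 9 below the 60th. Of the 47 members, 36 exceeded the noise limit (251.38 for the first set, 318.59 for the b set, judged from the negative values) in all 26 preparations, 6 did so in some and 5 in none. A filter on low values was passed by 45 and not by Rpl39l and Rps4l.

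The brightest members were Rpl41, whose product is the smallest ribosomal protein, Rpl23 of the large subunit, Rplp0, the base of the stalk that recruits translation factors, and Rps3, at the mRNA entry of the small subunit. Rpl41 averaged 20594, 20204, 20408, 20464 and 20189 in pre-BI, large pre-BII, small pre-BII, immature B and mature B cells. Its mean rank was the 99.978th percentile, and levels that near the top of an array are held almost equal by the normalisation itself. Rpl23 averaged 17872, 18836, 16878, 17373 and 16042 in the same order. Rplp0 averaged 16655, 16262, 14811, 15214 and 15653, and Rps3 averaged 14839, 14103, 14049, 13297 and 14725. Within a population the SD of Rpl23, Rplp0 and Rps3 ran from 383.5 to 3900.5, and none of the 4 genes passed a test.

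The members with the lowest levels were Rpl32-ps and Rpl32, which are on the b set with its lower floor, and Rps4l and Rpl39l on the first set. By percentile rank within an array set the lowest were Rps4l (2.5479), Rpl39l (19.37), Rpl34 (26.369) and Rpl32-ps (27.156). Rpl32 and Rpl32-ps were read by plain probe sets and never exceeded the noise limit, with highest values of 158.7 for Rpl32 in small pre-BII sort 1 and 129.7 for Rpl32-ps in mature B sort 8. A shared probe set that names Rpl32 together with Rpl32l was above the limit in all 26 preparations. Rpl10 showed the same contrast, with its plain set above the limit in 2 preparations (447.3 in small pre-BII sort 1, 293.6 in large pre-BII sort 10) and a set shared with Gm5621 above it in 26. A dim value of Rpl32 or Rpl10 is therefore the reading of 1 probe set. Which of the named genes gives the signal of the brighter sets was not tested.

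Relatives of core proteins were read as follows. Rpl22l1, a paralog that can take the place of Rpl22 in the large subunit, was above the limit throughout, with means of 1707, 1804, 1427, 1573 and 2031 from pre-BI to mature B cells. Its lowest value was 610.8 in small pre-BII sort 9 and its highest 2510 in immature B sort 8, and it passed no test. Rpl39l, known for its high level in testis, exceeded the limit once, at 313.7 in large pre-BII sort 9. Rps27l, a paralog of Rps27, exceeded it in 2 preparations, and its highest value was 299.2 in mature B sort 3. Rps4l was at the floor of 87.6 in every preparation.

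**Figure D1:**
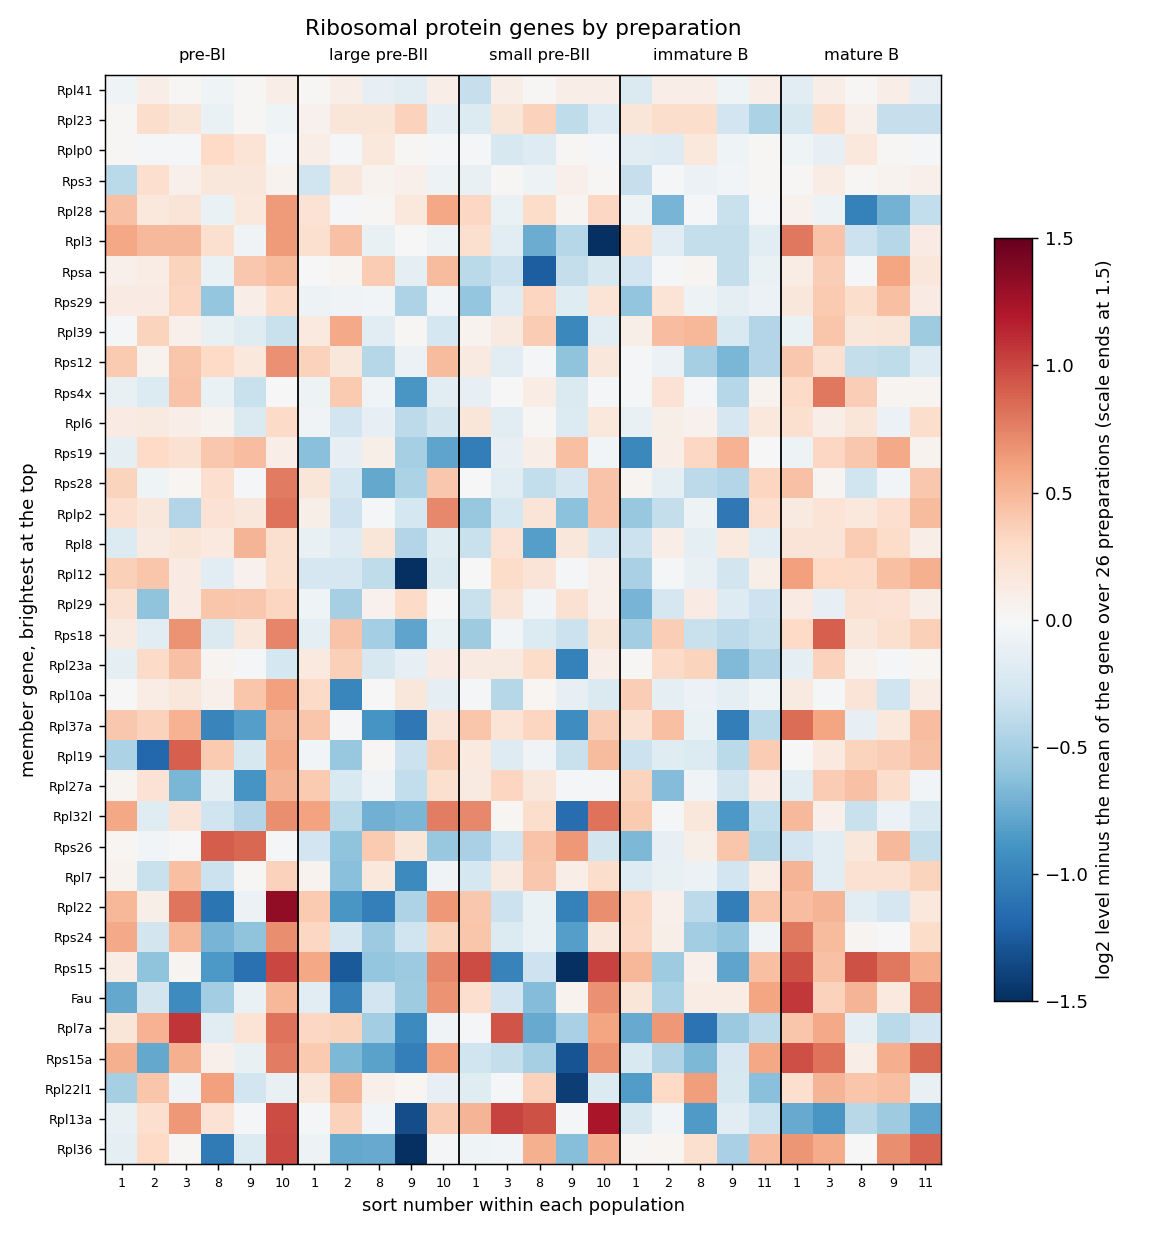
The 36 members above the noise limit in all 26 preparations, brightest at the top, with preparations in columns by population and sort number. Colour is the log2 level minus the mean of the gene, red higher and blue lower. Pre-BI sort 10 is mostly red and large pre-BII sort 9 mostly blue, while most rows show no block of colour by population.

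How many members differed between the 5 populations depended on whether sort number was taken into account. In the moderated F test (limma, Benjamini-Hochberg adjustment over the 10229 tested probe sets, threshold 0.05), 4 of the 45 tested members varied (8.89%), against 15% of all tested probe sets. They were Rpl13a (adjusted p = 0.00471), Rpsa (adjusted p = 0.00557), Rpl12 (adjusted p = 0.00948) and Rpl28 (adjusted p = 0.0211). With sort number as a block, 16 of 45 members varied (35.6%), against 17.8% of all probe sets in that fit, and the 4 genes above were among them. The other 12 were Rps15a, Fau, Rpl3, Rps12, Rps28, Rpl6, Rps26, Rps18, Rplp2, Rps19, Rps15 and Rpl36, with adjusted p from 0.0065 (Rps15a) to 0.0344 (Rpl36). Equal sort numbers deviated together in every pair for 3 of the 5 pairs of populations compared. Without block or adjustment, 12 of 45 members had p under 0.05 (26.7%), against 23.4% of all probe sets. Of the 1549 probe sets above the noise limit in all 26 preparations 540 varied without the block (34.9%), and of the 36 members among them 4 did (11.1%). Of all tested probe sets, 293 had a mean rank above the 97th percentile, near the median member. Above the 97th percentile of mean rank, 3 of 25 members varied (12%), against 33.1% of the 293 probe sets, and with trimmed-mean scaling, which does not fix the top of an array, 4 of 25 did (16%), against 31.4%.

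The range of the 5 population means gives the size of the differences. For the 36 bright members it had a median of 0.49 on the log2 scale, against 0.75 for all 1549 probe sets above the limit throughout. A range under 0.5 was found for 18 of 36 members (50%) and for 24.5% of all these probe sets. Above the 97th percentile, where the normalisation itself holds levels close, the medians were 0.42 for 25 members and 0.60 for 293 probe sets, and with trimmed-mean scaling they were 0.53 and 0.65. The largest range of a member was 1.41, that of Rpl13a. Its only probe set is a shared one (suffix s), with a mean rank at the 83.966th percentile.

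The level of the set was summarised in each preparation as the median over the 36 bright members of the log2 deviation from the gene's own mean. It averaged 0.13 ± 0.20 in pre-BI cells (SD, n = 6). The mean of large pre-BII cells was −0.11 ± 0.17, that of small pre-BII cells −0.04 ± 0.17, that of immature B cells −0.11 ± 0.11 and that of mature B cells 0.19 ± 0.08 (SD, n = 5 each). The values by sort number were 0.216, 0.306, 0.158, 0.148 and 0.105 in mature B sorts 1, 3, 8, 9 and 11, against −0.138, −0.02, −0.063, −0.289 and −0.041 in immature B sorts 1, 2, 8, 9 and 11. All 5 mature preparations lay above all 5 immature ones. Pre-BI preparations ran from −0.082 to 0.504 with a median of 0.091, and large pre-BII preparations were 0.073, −0.154, −0.086, −0.38 and −0.009 in sorts 1, 2, 8, 9 and 10. These 2 populations overlapped, and they hold the highest preparation, pre-BI sort 10, and the lowest, large pre-BII sort 9. Small pre-BII preparations lay between −0.289 and 0.166 and overlapped every other population.

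Read as a share of all intensity of the first array set, the members took 4.84% ± 0.45 of pre-BI (SD, n = 6), 4.28% ± 0.40 of large pre-BII, 4.30% ± 0.43 of small pre-BII, 4.22% ± 0.39 of immature B and 5.01% ± 0.25 of mature B arrays (SD, n = 5 each). From the values as deposited, before any normalisation here, the same shares were 4.93%, 4.29%, 4.23%, 4.25% and 5.23%. On the b set the members took 4.06%, 3.67%, 3.48%, 3.28% and 3.72%. From the values as deposited the b set gave 3.96%, 3.66%, 3.56%, 3.41% and 3.97%. Mature B cells had the highest mean share on the first set, while on the b set pre-BI cells had it after normalisation and mature B cells, by 3.97% against 3.96%, as deposited.

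**Figure D2:**
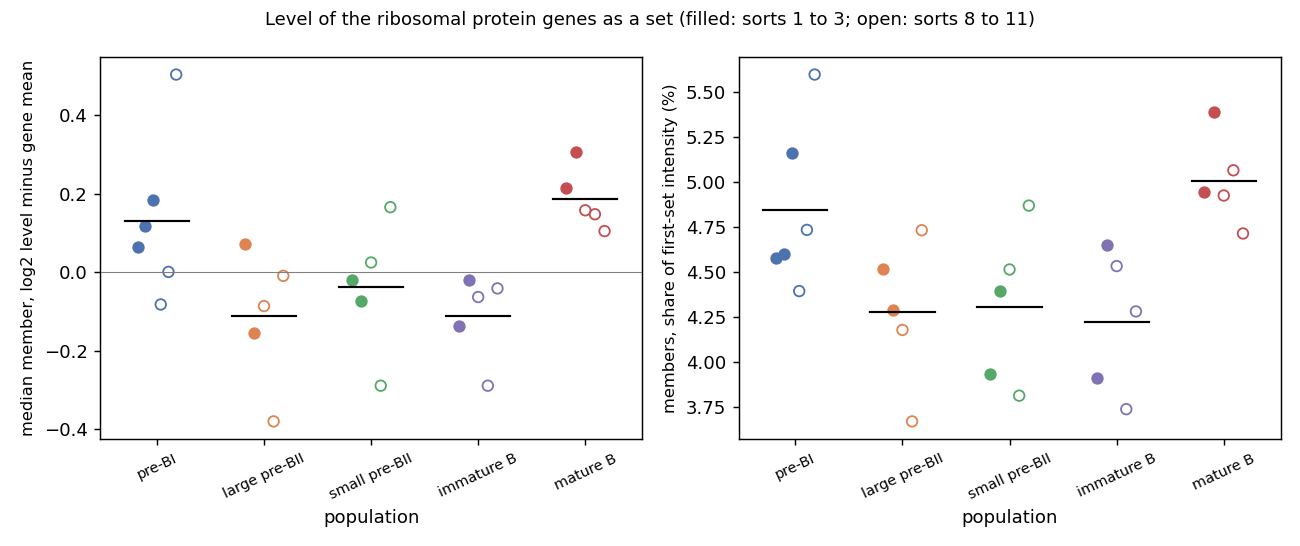
Left, the median log2 deviation of the 36 bright members in each preparation, and right, the members' share of first-set intensity in percent, by population. Points are preparations (filled for sorts 1 to 3, open for sorts 8 to 11) and bars are means; on the left the 5 mature B points, 0.105 to 0.306, stand above the 5 immature B points, −0.289 to −0.02.

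Controls on the arrays moved with the sorts. The 5′ probe set of 18S ribosomal RNA read 156 to 18619 in sorts 1 to 3 and −224 to 68 in sorts 8 to 11. The set level ran from −0.154 to 0.306 in the first of these batches and from −0.38 to 0.504 in the second. The 5′ to 3′ signal ratio of Gapdh, a measure of RNA integrity, averaged 0.328 ± 0.139 in mature B and 0.199 ± 0.110 in immature B preparations (SD, n = 5 each) and overlapped between them. Its part in the differences was not tested. Of the markers of other cells, erythroid ones (4 of 5 above the noise limit anywhere, led by Hba-a1, with Epor never above it) summed to 4736 to 16466 over all preparations. Macrophage markers (4 of 8, led by Lyz2, with Csf1r and Adgre1 never above the limit) summed to 4424 to 5726 in mature B and 2811 to 5333 in immature B cells, and to 2357 to 10167 overall. Granulocyte markers (7 of 10, led by Ngp, with Ltf, Mpo and Ctsg never above it) summed to 3937 to 7149 in mature B and 3270 to 4984 in immature B cells, and to 2170 to 11629 overall. T and NK cell markers (4 of 8, led by Gzma, with Cd3d, Cd3g and Cd8a never above it) summed to 97 to 518 in mature B, 81 to 533 in immature B, 296 to 1096 in small pre-BII and 552 to 997 in large pre-BII cells, all below the 1175 to 4857 of pre-BI cells. The part of these cells in the members' levels, also where pre-BI cells are compared, was not tested. The 6 genes of dividing cells summed to 14789 to 17491 in pre-BI, 24766 to 25961 in large pre-BII, 1552 to 3540 in small pre-BII, 1146 to 1816 in immature B and 838 to 1235 in mature B cells. Of the B lineage markers Cd79a, Cd79b and Ptprc were above the limit in all 26 preparations, Ebf1 in 23 and Pax5 in 1. The transcripts of the gating markers Kit and Il2ra were above it in 2 and 1.

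Large pre-BII cells, which had the highest sum of dividing-cell genes, were set against pre-BI cells. No member passed (0 of 45), against 1.94% of all probe sets (0.88% higher and 1.06% lower). An unadjusted p under 0.05 was found for 4 (8.89%), Rpl12, Rpl6, Rps19 and Rpl10a, against 9.62% of all probe sets. The median difference of the members was −0.16 on the log2 scale, against 0 for all probe sets, and 34 of 45 members were on the lower side. The higher side held 24.4% of members, against 49.8% of all probe sets. Within sorts 1 to 3 the median was −0.16 and within sorts 8 to 11 it was −0.22, but on the values as deposited it was 0.03. Preparations of equal sort number deviated together in this pair of populations, and with sort number as a block 5 members fell (11.1%), against 1.67% of all probe sets that fell in that fit. They were Rps19 (−0.62, adjusted p = 0.0302), Rps26 (−0.50, adjusted p = 0.0199), Rpl12 (−0.77, adjusted p = 0.0353), Rps28 (−0.43, adjusted p = 0.0218) and Rpl6 (−0.31, adjusted p = 0.0263). Rps19 is the gene most often mutated in Diamond-Blackfan anaemia of humans. Leaving out pre-BI sort 8 or large pre-BII sort 1, 2 or 10 without the block brought the count to 1.

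Rpl12, a large subunit protein that joins Rplp0 at the base of the stalk, had its lowest mean in large pre-BII cells. Its level was 5435, 5443, 4993, 1794 and 5577 in large pre-BII sorts 1, 2, 8, 9 and 10, against a lowest value of 5795, a median of 7361 and a highest of 8641 in pre-BI cells. Every large pre-BII value lay below every pre-BI value, and sort 9 lay far below the rest of its population. The difference of −0.765 ± 0.207 (SE) had an adjusted p of 0.0552. Small pre-BII cells read 6510, 7832, 7420, 6383 and 6852 in sorts 1, 3, 8, 9 and 10, all above the large pre-BII values (0.70 ± 0.22, adjusted p = 0.0613). Mature B cells read 9962, 7999, 7944, 8900 and 9380 in sorts 1, 3, 8, 9 and 11, against 4635, 6383, 6003, 5363 and 6891 in immature B sorts 1, 2, 8, 9 and 11. The mature values were again all higher (0.60 ± 0.22, adjusted p = 0.294). With no block, none of the pairs of populations compared passed for Rpl12, while its F test did. The F test also passed without large pre-BII sort 9 (adjusted p = 0.001). Mature B and large pre-BII cells, which hold its highest and lowest means, were not compared. With sort number as a block the difference between small and large pre-BII cells passed too (0.754, adjusted p = 0.0321). Centred on the median ribosomal protein gene, so that a member is read against the set, the F test of Rpl12 had an adjusted p of 0.0575.

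Small pre-BII cells, which have left the cycle, were set against large pre-BII cells. The members' median difference was 0.06, equal to that of all probe sets, with 28 members on the higher and 17 on the lower side. The higher side held 62.2% of members, against 54.2% of all probe sets. Of the 45 members 1 passed, against 5.5% of all probe sets (2.29% higher and 3.22% lower), and it fell: Rpsa, the small subunit protein once described as the laminin receptor precursor, which is needed for assembly of the small subunit. Its level was 8745, 9218, 4910, 9039 and 9809 in small pre-BII sorts 1, 3, 8, 9 and 10, against 11496, 11835, 15059, 10555 and 16010 in large pre-BII sorts 1, 2, 8, 9 and 10. The groups did not overlap, and small pre-BII sort 8 was the lowest of all 26 preparations. Rpsa was 1.58-fold lower (log2 difference −0.66 ± 0.17, adjusted p = 0.0161).

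In the other populations Rpsa read 10781, 13484 and 16010 as lowest, median and highest in pre-BI cells. It read 9469, 11409, 11835, 9039 and 10781 in immature B cells and 12455, 14854, 11409, 17423 and 13036 in mature B cells. The immature values overlapped the small pre-BII ones, and the difference between them did not pass (0.37 ± 0.17 for immature against small pre-BII, adjusted p = 0.472). Within sorts 1 to 3 the difference between small and large pre-BII cells was −0.38 and within sorts 8 to 11 it was −0.85, without passing in either. The call was lost without large pre-BII sort 8 (adjusted p = 0.0549), large pre-BII sort 10 (adjusted p = 0.0569) or small pre-BII sort 8 (−0.48, adjusted p = 0.0549). It was also lost with trimmed-mean scaling (−0.58, adjusted p = 0.109), with 75th percentile scaling (−0.64, adjusted p = 0.0696) and on the deposited values (−0.58, adjusted p = 0.843).

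Rpsa has 3 further probe sets. A second family set with a lower level, 4858 in large pre-BII and 2316 in small pre-BII on average, fell by 1.085 on the log2 scale between these populations (adjusted p = 0.00141) and varied in the F test (adjusted p = 0.000352). Its small pre-BII values were 1799, 1844, 1890, 2244 and 3803, against 5773, 2944, 4295, 5099 and 6178 in large pre-BII cells, so the highest small pre-BII value, that of sort 10, overlapped with the lowest large one. A shared set was lower in the same direction without passing (−0.93, adjusted p = 0.231), and the fourth set was never above the noise limit. These probe sets read the same RNA and are not replicates.

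**Figure D3:**
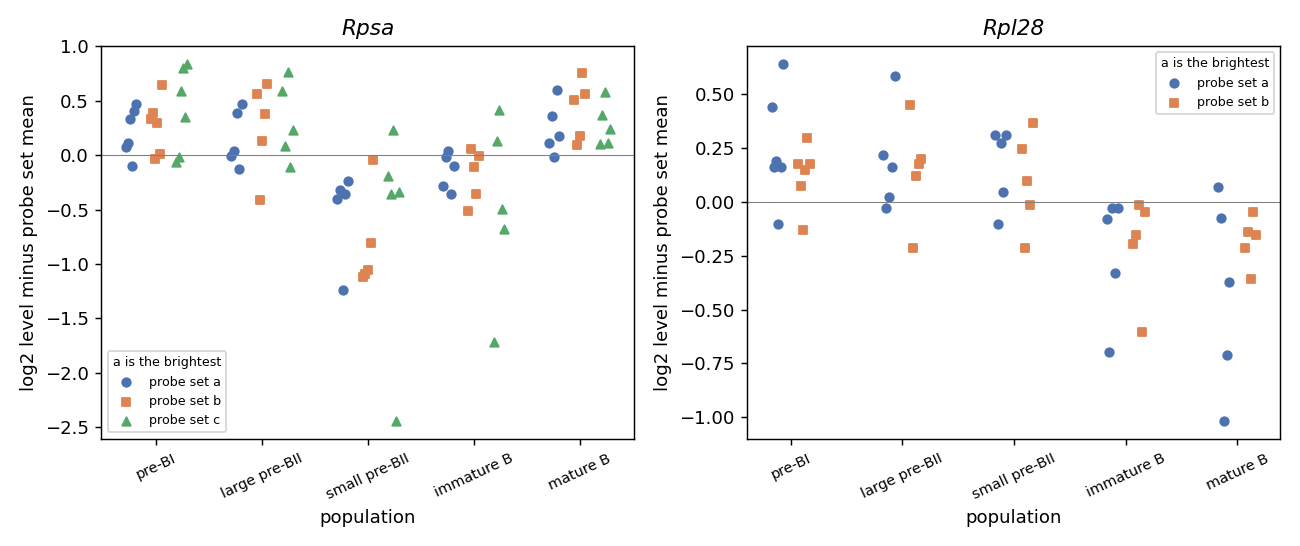
Probe sets of Rpsa (left, 3 sets) and Rpl28 (right, 2 sets), each as log2 level minus its own mean, by population, 1 point per preparation and set a the one used. For Rpsa all 3 sets are lowest on average in small pre-BII cells, and the lowest point is that of set c in small pre-BII sort 9; for Rpl28 both sets are lower in immature and mature B cells.

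Rpl13a, a large subunit protein that in human monocytic cells also leaves the ribosome to silence inflammatory mRNAs, had its highest levels in small pre-BII cells. It read 1368, 1942, 1859, 937 and 2249 in small pre-BII sorts 1, 3, 8, 9 and 10, against 949, 1219, 932, 383 and 1245 in large pre-BII sorts 1, 2, 8, 9 and 10. The groups overlapped through small pre-BII sort 9, and the difference of 0.87 ± 0.29 had an adjusted p of 0.0861. Immature B cells read 811, 935, 531, 860 and 770 in sorts 1, 2, 8, 9 and 11, all below the small pre-BII values. That difference, −1.06 ± 0.29, had an adjusted p of 0.0507, and it passed with trimmed-mean scaling (adjusted p = 0.0362) and when centred on the median ribosomal protein gene (−0.985, adjusted p = 0.0302).

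From small pre-BII to immature B cells the members as a whole differed little. No member passed (0 of 45), against 2.24% of all probe sets (1.33% higher and 0.909% lower). An unadjusted p under 0.05 was found for 3 (6.67%), Rpl13a, Rpl28 and Rpsa, against 9.79% of all probe sets, and the count reached 1 without pre-BI sort 10, large pre-BII sort 9 or small pre-BII sort 9. The median was −0.06, against −0.02 for all probe sets, and was −0.009 within sorts 1 to 3 and −0.10 within sorts 8 to 11. With sort number as a block it was −0.004.

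Mature B cells, resting cells with high B220, were set against immature B cells. No member passed (0 of 45), against 1.35% of all probe sets (0.635% higher and 0.714% lower). In direction, 38 members were on the higher side (84.4%), against 50.8% of all probe sets, and 7 members on the lower. The members' median difference was 0.28, against 0.01 for all probe sets. It was 0.32 within sorts 1 to 3, 0.28 within sorts 8 to 11, 0.26 with sort number as a block and 0.22 on the deposited values. The median SE of a member here was 0.225. An unadjusted p under 0.05 was found for 8 members (17.8%), against 7.77% of all probe sets. They included the small subunit genes Rps18 (0.63 ± 0.23, adjusted p = 0.277), Rps15a (0.86 ± 0.36, adjusted p = 0.454) and Rps29 (0.42 ± 0.17, adjusted p = 0.451). They also included Rplp2, the acidic stalk protein (0.61 ± 0.25, adjusted p = 0.426). Without large pre-BII sort 9, which belongs to neither population but to the shared estimate of spread, 1 member passed.

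Rps18 illustrates the overlap. It read 7612, 11536, 7016, 7327 and 7944 in mature B sorts 1, 3, 8, 9 and 11, against 4329, 8051, 4944, 4715 and 4910 in immature B sorts 1, 2, 8, 9 and 11. Immature sort 2 was the only immature value inside the mature range. Among the 36 bright members the highest of the 5 population means was that of mature B cells for 21 (58.3%), against 22.9% of the 1549 probe sets, and that of pre-BI cells for 11 (30.6%), against 20.1%. The lowest mean was that of immature B cells for 11, large pre-BII for 10, small pre-BII for 8, mature B for 4 and pre-BI for 3. For the lowest mean the share over all probe sets was not counted. Above the 97th percentile of rank the highest mean was that of mature B cells for 15 of 25 members (60%), against 23.2% of probe sets. These counts are descriptions of genes that share the same preparations.

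**Figure D4:**
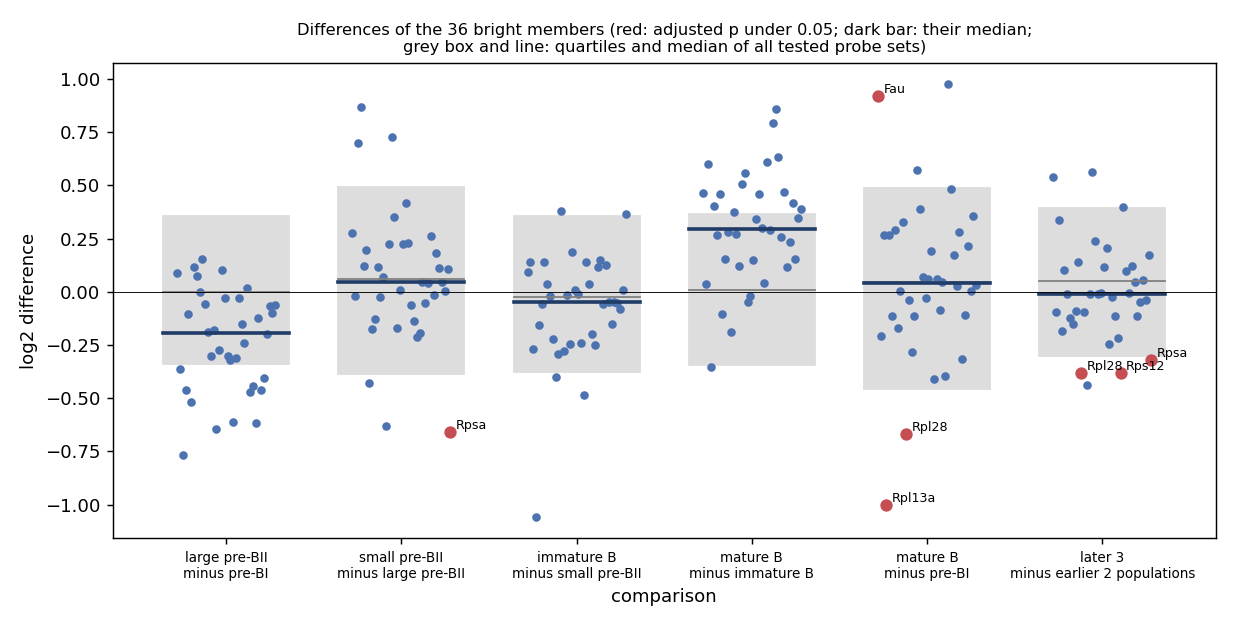
Log2 differences of the 36 bright members in the 6 comparisons, 1 point per gene, with red for adjusted p under 0.05. The dark bar is the members' median, and the grey box and line are the quartiles and median of all tested probe sets; the members lie above the centre of all probe sets for mature B minus immature B and below it for large pre-BII minus pre-BI.

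The 2 ends of the series, mature B and pre-BI cells, were also compared. Of 45 members 3 passed, 1 higher and 2 lower, against 10.7% of all probe sets (4.8% higher and 5.9% lower). The median member differed by 0.05, against 0.04 for all probe sets, with 27 on the higher and 18 on the lower side. The higher side held 60% of members, against 52.8% of all probe sets. On the deposited values the median was 0.27. It was 0.09 within sorts 1 to 3 and −0.008 within sorts 8 to 11. With sort number as a block 5 members passed (11.1%), against 12.8% of all probe sets in that fit. The 3 that passed without it were among them, with Rps15 (1.073, adjusted p = 0.0113) and Rps4x (0.421, adjusted p = 0.0393), both higher.

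Rpl13a fell. It read 567, 525.6, 717, 662 and 553 in mature B sorts 1, 3, 8, 9 and 11, against a lowest value of 891, a median of 1128 and a highest of 1890 in pre-BI cells. Every mature value lay below every pre-BI value, and the mature preparations were close to each other (605.1 ± 81.1, SD, n = 5). The gene was 2.004-fold lower (−1.003 ± 0.276, adjusted p = 0.0161), with −1.08 within sorts 1 to 3 and −0.97 within sorts 8 to 11, and the call held in each of the 26 fits that left out 1 preparation. It was not made on the deposited values (−0.74, adjusted p = 0.732) or within either batch alone.

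Rpl28, a large subunit protein that budding yeast lacks, fell as well. It read 13477, 12202, 6359, 7858 and 9930 in mature B sorts 1, 3, 8, 9 and 11, against a lowest value of 11990, a median of 14517 and a highest of 20048 in pre-BI cells. The groups overlapped, since mature sorts 1 and 3 lay inside the pre-BI range while sorts 8, 9 and 11 lay below it. It was 1.59-fold lower (−0.67 ± 0.17, adjusted p = 0.0108), with −0.27 within sorts 1 to 3 and −0.93 within sorts 8 to 11. Without mature B sort 8 the call was lost (−0.52, adjusted p = 0.0523). It was also lost with trimmed-mean scaling (−0.35, adjusted p = 0.445), with 75th percentile scaling (−0.59, adjusted p = 0.185) and on the deposited values (−0.68, adjusted p = 0.244). A second family probe set of Rpl28, also bright throughout, averaged 10054 in mature B and 12438 in pre-BI cells and did not pass (−0.305, adjusted p = 0.145).

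Fau, which encodes a ubiquitin-like protein fused to the small subunit protein S30, rose. It read 6141, 3722, 4171, 3244 and 5124 in mature B sorts 1, 3, 8, 9 and 11, against a lowest value of 1531, a median of 2237 and a highest of 4157 in pre-BI cells. The groups overlapped through pre-BI sort 10, which was the highest pre-BI value of the set as a whole too. Fau was 1.89-fold higher (0.92 ± 0.285, adjusted p = 0.0355), with 1.37 within sorts 1 to 3 and 0.52 within sorts 8 to 11. The call was lost on leaving out pre-BI sort 1, 3 or 8 or mature B sort 1, 8 or 11, with adjusted p between 0.0582 and 0.112. It was also lost with no filter on dim probe sets (adjusted p = 0.0569), within either batch and on the deposited values (1.12, adjusted p = 0.208). Its means increased in stage order, 2440, 2642, 3113, 3250 and 4481, without a call in any consecutive comparison.

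Rpl5, which with Rpl11 carries 5S ribosomal RNA and can bind Mdm2, was near the noise limit. It read 309, 546, 317, 360 and 186 in mature B sorts 1, 3, 8, 9 and 11, against a lowest value of 92.2, a median of 130 and a highest of 273 in pre-BI cells. Only 5 of 26 preparations exceeded the limit, and the difference of 1.155 ± 0.388 had an adjusted p of 0.0572. Probe sets shared between Rpl5 and its pseudogene were bright throughout and differed by −0.005 and 0.14.

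**Figure D5:**
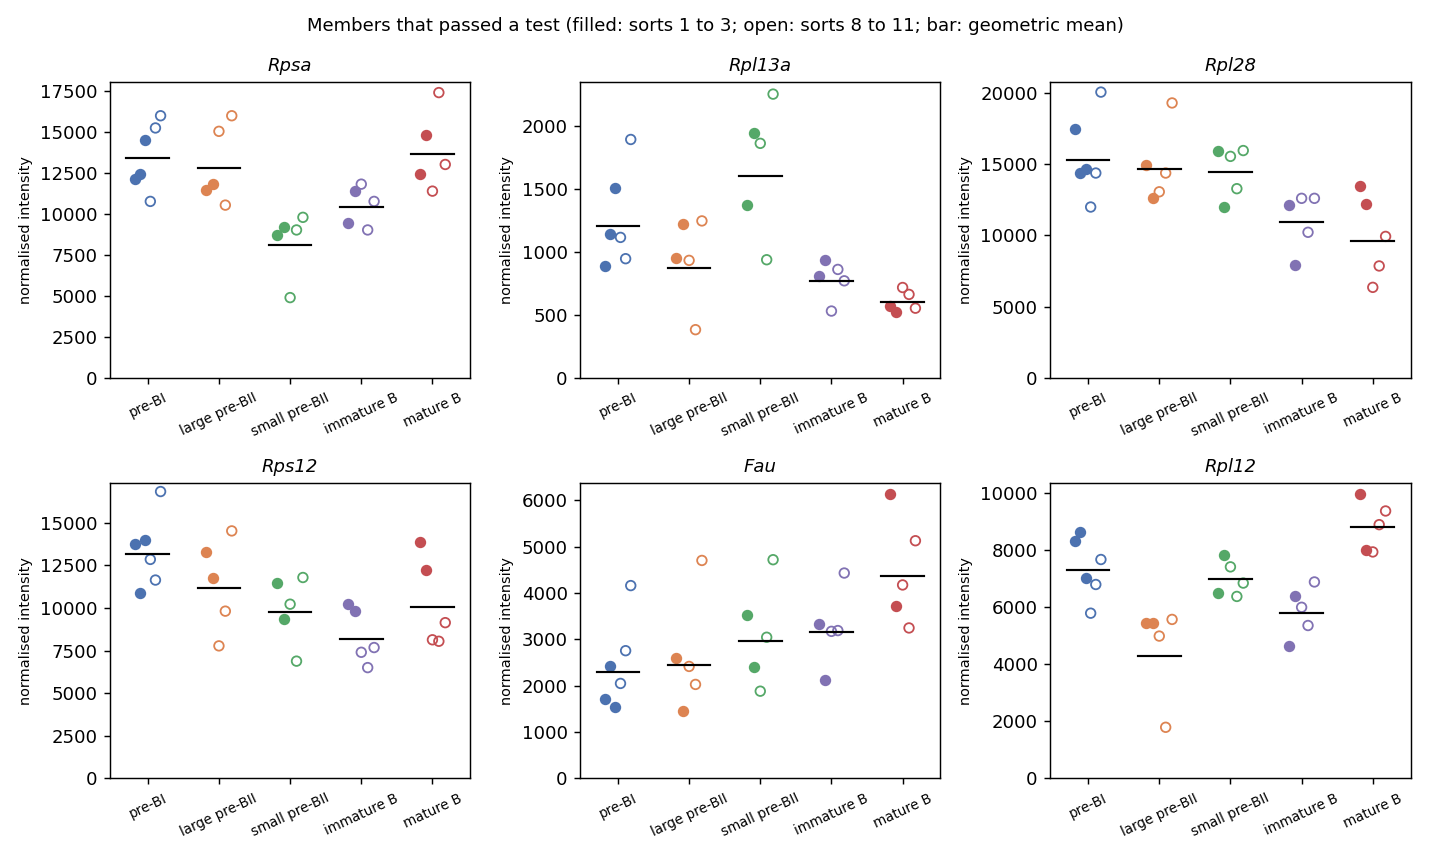
Normalised intensity of the 6 members that passed a test with no block for sort number, by population, 1 point per preparation (filled for sorts 1 to 3, open for sorts 8 to 11) with a bar at the geometric mean. Rpsa is lowest in small pre-BII cells and Rpl13a in mature B cells. Rpl28 is lower in immature and mature B cells, Rps12 has lower means in all later populations, and Fau is higher in mature B cells.

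Finally the 3 later populations (small pre-BII, immature B and mature B) were set against the 2 earlier, dividing ones. Of 45 members 3 fell and none rose, against 14.8% of all probe sets (7.05% higher and 7.75% lower). The members' median was −0.01, against 0.05 for all probe sets, with 18 on the higher and 27 on the lower side. The higher side held 40% of members, against 54.6% of all probe sets. The members that fell were Rpl28 (−0.38 ± 0.12, adjusted p = 0.0229), Rps12 (−0.38 ± 0.12, adjusted p = 0.0287) and Rpsa (−0.32 ± 0.11, adjusted p = 0.0435). With trimmed-mean scaling none of these 3 passed, and Rpl12 (0.45, adjusted p = 0.0422) and Rpl6 (0.32, adjusted p = 0.0494) rose instead. Centred on the median ribosomal protein gene, Fau (0.535, adjusted p = 0.0416) and Rpl36 (0.56, adjusted p = 0.0226) also rose, as they did with sort number as a block (Fau 0.57, adjusted p = 0.00392, and Rpl36 0.63, adjusted p = 0.0203). This comparison shares its preparations with those above and is no separate evidence for Rpl28 and Rpsa. The falls were not shared alike by the later populations. Rpl28 averaged 14541 in small against 14857 in large pre-BII cells (−0.02, adjusted p = 0.983). Rpsa had its highest mean, 13835, in mature B cells.

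Rps12, in the beak of the small subunit, passed here and, with sort number as a block, in the F test (adjusted p = 0.0133). It read 11465, 9346, 10219, 6879 and 11784 in small pre-BII, 10219, 9811, 7399, 6500 and 7676 in immature B and 13854, 12248, 8131, 8045 and 9136 in mature B cells, each in order of sort number. The dividing populations read 13276, 11784, 7774, 9811 and 14517 in large pre-BII cells and 10859, 13297 and 16826 as lowest, median and highest in pre-BI cells. Mature B sorts 1 and 3 lay among the pre-BI values, and all 5 immature values lay below every pre-BI value. The difference was −0.19 within sorts 1 to 3 and −0.52 within sorts 8 to 11, and with trimmed-mean scaling it was −0.115 (adjusted p = 0.742). With 75th percentile scaling (adjusted p = 0.19) and on the deposited values (adjusted p = 0.163) the call was lost too. It was also lost without pre-BI sort 10 (adjusted p = 0.057), large pre-BII sort 1 (adjusted p = 0.0642) or large pre-BII sort 10 (adjusted p = 0.0696). That of Rpl28 was −0.275 within sorts 1 to 3 and −0.45 within sorts 8 to 11, with −0.13 under trimmed-mean scaling (adjusted p = 0.675). It was lost with 75th percentile scaling (adjusted p = 0.12), on the deposited values (adjusted p = 0.21) and without large pre-BII sort 10 (adjusted p = 0.0588). That of Rpsa was −0.19 and −0.415 within the batches and −0.10 on the deposited values, and the call was lost with trimmed-mean (adjusted p = 0.242) and 75th percentile scaling (adjusted p = 0.182). It was lost in 11 of 26 fits, without pre-BI sort 3, 9 or 10, large pre-BII sort 8 or 10, immature B sort 1, 9 or 11 or mature B sort 1, 8 or 11, with adjusted p from 0.0527 to 0.0977.

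Rpl3, which lies beside the catalytic centre of the large subunit, was among the 8 members whose profile departed most from that of the median member, though it passed no test of the fit with no block. With sort number as a block it varied in the F test (adjusted p = 0.0117). In later against earlier populations (−0.44, adjusted p = 0.0697) it passed with either block and with both higher floors (adjusted p from 0.0119 to 0.046). It read 14660, 11128, 7399, 9217 and 4168 in small pre-BII sorts 1, 3, 8, 9 and 10, against 14660, 16826, 11465, 12364 and 11784 in large pre-BII sorts 1, 2, 8, 9 and 10. The groups overlapped and small pre-BII sort 10 was the lowest (−0.63 ± 0.25, adjusted p = 0.196). With batch as a block this difference passed (adjusted p = 0.0454), and with sort number as a block too (−0.66, adjusted p = 0.0485). The other 7 were Rpl13a, Rpl32, Rpl10, Rpl28, Rpl5, Rpl39l and Rpsa, of which Rpl32, Rpl10, Rpl5 and Rpl39l were mostly under the noise limit. At the other end, Rpl19 and Rps4x followed the median member most closely, within a range of 0.11 and 0.16 on the log2 scale.

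Members moved together between preparations of 1 population only in part. Across the 26 preparations, the deviations of 2 bright members from their population means correlated with a median r of 0.15 and a range from −0.80 to 0.90. The correlation of a member with the median of the other members had a median of 0.42, was highest for Rpl36 (0.78), Rpl22 (0.75) and Rpl32l (0.75), and was below 0 for 8 members, lowest for Rps26 (−0.57), Rps19 (−0.33) and Rplp0 (−0.30). These values share the arrays and their normalisation and carry no test.

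Probe sets that name several symbols were read beside the members. Of 24 such sets 23 were tested and 5 varied in the F test, against 15% of all probe sets. Among them 2 name Rps2, a small subunit protein of the entry channel, together with predicted genes (adjusted p = 0.000949 and 0.00608). For these the differences between small and large pre-BII cells were −0.43 and −0.66. The others name Rpl34 with its pseudogenes (adjusted p = 0.0466), Rpl13 with a pseudogene (adjusted p = 0.00538) and Rpl13 with the unrelated gene Tax1bp3 (adjusted p = 1.74e-05), and the last cannot be assigned to a ribosomal protein gene.

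Genes that make or serve the ribosome gave further values. Of 25 tested ribosome biogenesis genes 3 fell and none rose between mature B and pre-BI cells (5.9% of all probe sets fell), with a median of −0.41, against 0.05 for the ribosomal protein genes and 0.04 for all probe sets. They were Gar1 (−2.125), Fbl, the fibrillarin methyltransferase (−1.14), and Nme2 (−0.69). Between small and large pre-BII cells 2 of 25 fell, Gar1 (−2.62) and Ncl, or nucleolin (−1.755), against 3.22% of all probe sets. Between large pre-BII and pre-BI cells 2 of 25 fell, Fbl (−0.96) and Nme2 (−0.72), against 1.06%. Between immature B and small pre-BII cells 1 of 25 fell, against 0.909%. Of 31 tested mitochondrial ribosomal protein genes 3 fell between mature B and pre-BI cells, against 5.9% of all probe sets, with a median of −0.46. They were Mrpl18, Mrpl2 and Mrpl48 (−1.91, −1.33 and −0.84). Between small and large pre-BII cells 1, Mrpl24, rose (0.73, adjusted p = 0.0336), against 2.29% of all probe sets that rose. A last list held 17 translation factor genes and other mRNAs known for a pyrimidine tract. Between mature B and pre-BI cells 1 of them fell (Eef1d, −0.74), with a median of −0.21. Between small and large pre-BII cells 1 fell, Nap1l1 (−1.04). In later against earlier populations 4 of 25 biogenesis, 4 of 31 mitochondrial and 3 of 17 translation genes fell, against 7.75% of all probe sets. None of these lists had a rise there. The F test called 7, 3 and 2 genes of the lists in this order, against 15% of all probe sets. Some called genes of these lists were not above the noise limit in all 26 preparations. Ncl was above it in 23, Mrpl18 in 20 and Gar1 in 16. Mrps25, which fell in later populations, was above it in 4, and Wdr12, which fell in immature B cells, in 3. Dim values therefore enter their differences, and the mean of Gar1 in small pre-BII cells, 183.7, lay under the limit. Whether these lists differ from the ribosomal protein genes was not tested.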

How the data were processed

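The authors deposited 1 intensity per probe set and array in a table for each array set, in linear units that reach below 0. Scanner software, summarisation and scaling are not given in the sources used here. Symbols are those of the array annotation, and loci and promoters those of RefSeq (GRCm38.p6).

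After removal of 55 control probe sets per array set, each table was quantile-normalised and arrays of 1 preparation were averaged. Lower values were set to the 40th percentile of their table (87.556 and 6.8889) before log2. The tests used 5019 and 5210 probe sets that exceeded this floor in 5 or more of 26 preparations. A single limma fit (3.58.1, R 4.3.3, eBayes with trend) held all preparations, and p-values were adjusted by Benjamini-Hochberg across these probe sets within each comparison, with a threshold of 0.05. The fit was also run on simulated data with noise drawn independently for each value and planted differences larger than those of the members. That run held no effect shared within a preparation or sort, so it cannot show how such effects change the calls above. The noise limit is 2 robust standard deviations judged from the negative values. Quantile normalisation gives equal ranks equal levels, so values recur at the bright end.

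The rule for named genes took members that passed any of 7 tests, the 8 that depart most from the median member's profile, the 4 brightest and 4 dimmest, paralogs, and the 2 nearest to the median profile. Others named beside a count or a block result, such as Rps18, Rps19, Rps26 and Rpl10a, were chosen after their values were seen. The members and lists were chosen with earlier results of these data known.

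Sort numbers were read from the sample titles, where nothing states what equal numbers share. Deviations of equal numbers correlated above 0.1 in every pair for large pre-BII and pre-BI (0.114 to 0.297, 5 pairs), immature B and small pre-BII (0.137 to 0.251, 3) and mature and immature B cells (0.116 to 0.205, 4). The stratum above the 97th percentile of mean rank was chosen after seeing the data.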

Additional observations from a re-analysis of the deposited data

Results flagged for a closer look

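In groups of 5 or 6 preparations, a value was singled out when its gap to the nearest other was large for the group's range. Dixon's ratio was used at the 95% level, on log2 levels for genes, while the levels printed below are linear. The groups were the populations, for each member that passed a test with no block and for the set level and shares. Of 45 groups tested 3 were singled out, and chance alone gives about 1 in 20. Rpl12 read 1794 in large pre-BII sort 9, where the other 4 preparations of that population read 4993 to 5577 (ratio 0.902). Rpl13a read 383.1 in the same preparation, with the other 4 between 932 and 1245 (ratio 0.755). That preparation also had the lowest level of the whole set, −0.38. Rpsa read 4910 in small pre-BII sort 8, with the other 4 between 8745 and 9809 (ratio 0.834). The level of the set in small pre-BII sort 8 was 0.025, inside the range of its population.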

How the results depend on the processing

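No difference that passed was reversed under any of the 16 alternatives or of the 26 fits that left out 1 preparation. On the values as deposited no member passed any of the 7 tests (0 in each), and the median difference was 0.029 for large pre-BII against pre-BI and 0.27 for mature B against pre-BI cells. Within sorts 1 to 3 the counts were 0 throughout, and within sorts 8 to 11 they were 1 for the F test, 0 for small against large pre-BII 1 for mature B against pre-BI and 2 for later against earlier populations, in fits with fewer preparations. For small against large pre-BII, trimmed-mean and 75th percentile scaling gave 0, the 60th percentile floor 2 and the noise limit as floor 3. Batch as a block, second arrays left out and every probe set gave 2 each, the last being 2 probe sets of Rpsa. For later against earlier populations 75th percentile scaling gave 0, centring on the median member 5, the 60th percentile floor 5, the noise limit 6 and batch as a block 5. For large pre-BII against pre-BI the 60th percentile floor, the noise limit and leaving out second arrays gave 1 each. For immature B against small pre-BII, trimmed-mean scaling, centring and both higher floors gave 1 each. Probe sets of several symbols were also counted, an alternative chosen after seeing the data, over 45 members and 23 tested sets. The counts were then 9 (F), 2 (small against large pre-BII) and 1 (immature B against small pre-BII). They were 1 (mature against immature B), 5 (mature B against pre-BI) and 5 (later against earlier). The replicate block of sort number gave 16 members in the F test, 5 for large pre-BII against pre-BI, 4 for small against large pre-BII, 5 for mature B against pre-BI and 5 for later against earlier populations, where Rpsa was lost (adjusted p = 0.0693). The shares of all probe sets called in that fit were 17.8%, 3.17%, 7.58%, 12.8% and 17.2%. For the other alternatives and the fits that left out 1 preparation this share was not counted. Their counts are therefore not set against all probe sets. Numbers did not pair in every case for small and large pre-BII (r 0.003 to 0.243, 1 of 4 over 0.1, with 5 of 8 preparations closest to their own number) and for mature B and pre-BI cells (0.06 to 0.242, 3 of 4, with 7 of 8). Leaving out 1 preparation gave 3 to 5 members in the F test, 0 to 1 for large pre-BII against pre-BI, 0 to 2 for small against large pre-BII, 0 to 1 for immature B against small pre-BII, 0 to 1 for mature against immature B, 1 to 4 for mature B against pre-BI (1 without mature B sort 8) and 2 to 4 for later against earlier populations. In the F test Rpl28 was lost without mature B sort 8 (adjusted p = 0.0544) or sort 9 (adjusted p = 0.0615). The cause of these shifts was not tested, apart from the smaller fits named. Signal over background limits the 11 members that were not above the noise limit throughout, Rpl4, Rpl5, Rpl10, Rpl27, Rpl32, Rpl32-ps, Rpl34, Rpl39l, Rps4l, Rps7 and Rps27l.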
